A study of Homo sapiens with 6 samples.

Results

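AU-rich element binding proteins recognise AU-rich stretches in the 3′ untranslated region (UTR) of short-lived mRNAs and set how fast those mRNAs are degraded or translated. The 10 genes described here were chosen by symbol as proteins that destabilize or stabilize such mRNAs, and they are 10 of the 37822 genes in the deposited table. All 10 were present, and all 10 passed the filter on low counts. They were measured by RNA sequencing in Huh7, a human hepatocellular carcinoma cell line. Cells in both groups had been exposed for 24 h to lentivirus packaged in HEK293T cells. The VPS72 group (genotype labelled VPS72 overexpression) received virus carrying VPS72, which helps chromatin remodellers of the SRCAP and TIP60 type to exchange histone variants, and the FLAG group (genotype labelled WT) received the tag-only control virus, with 3 libraries each. The sources used here do not say whether each group was a clone or a pool of infected cells, nor which promoter drives VPS72.

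Total counts ranged from 23969324 to 29091824 in the VPS72 libraries and from 21345279 to 25352335 in the FLAG libraries. VPS72 itself averaged 1161 ± 11.5 CPM (counts scaled to the library total after trimmed mean of M values, TMM, normalization) in VPS72 libraries and 23.9 ± 2.70 CPM in FLAG libraries (SD, n = 3 each), a 48.5-fold difference in the direction of the labels. The 7 hepatocyte markers examined summed to 18952 to 19776 CPM in VPS72 libraries and 16884 to 17577 CPM in FLAG libraries. Of these, 5 rose (edgeR, adjusted p under 0.05), beside 0.421% of all genes tested. All 7 were higher with no overlap between the groups, beside 8.76% of all genes tested. The 5 fibroblast markers summed to at most 10.6 CPM in VPS72 and 11.3 CPM in FLAG libraries, the 5 immune markers to at most 0.938 and 1.675 CPM, the 4 endothelial markers to at most 4.93 and 4.55 CPM, and the 4 genes used as HEK293T markers to at most 0.0695 and 0.0465 CPM. DCN, PTPRC, TYROBP and CDH5 were at or near 0, but some markers of the same lists were not. In VPS72 and FLAG libraries COL1A1 averaged 6.21 and 7.06 CPM, PDGFRB 2.89 and 2.29 CPM, and PECAM1 4.42 and 3.19 CPM. Since these are bulk libraries, fewer cells expressing an mRNA and less RNA per cell cannot be told apart.

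The proteins act in different ways on related targets. ZFP36 (tristetraprolin), ZFP36L1 and ZFP36L2 bind the element through a pair of zinc fingers and bring in the CCR4-NOT deadenylase, which shortens the poly(A) tail and starts decay. HNRNPD (AUF1) and KHSRP (KSRP) also promote decay of AU-rich mRNAs, ZC3H12A (Regnase-1) is an endonuclease that cuts stem-loops in inflammatory mRNAs, and ELAVL1 (HuR) competes for AU-rich sites and stabilizes the mRNA. TIA1 and TIAL1 (TIAR) repress translation of AU-rich mRNAs and assemble stress granules, and AUH is a mitochondrial hydratase of leucine breakdown that was also found to bind AU-rich RNA. The ZFP36 proteins are themselves made from AU-rich mRNAs, and ZFP36 protein is known to bind its own transcript.

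The nonamer TTATTTATT, a preferred site of the ZFP36 family that contains the shorter pentamer ATTTA, was searched on the mRNA strand of 1 GENCODE 29 transcript per gene. It was found in the 3′ UTR of 4 of the 10 genes, namely all 3 ZFP36 family genes and ELAVL1, and in 8.61% of the 12210 tested genes with an annotated 3′ UTR (VPS72 left out). Of 42 tested short-lived mRNAs with an annotated 3′ UTR, 14 hold it, and TNFAIP3 is the only one of these that fell in VPS72 cells. The sites of the 4 genes and of TNFAIP3 are shown to place regulators and a known type of target side by side. Each is given as 30 bases on the transcript's strand with the nonamer in capitals and positions on GRCh38 from GENCODE 29.
ZFP36 (3′ UTR, chr19:39409196-39409225, + strand): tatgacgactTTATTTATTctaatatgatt
ZFP36L1 (3′ UTR, chr14:68788076-68788105, - strand): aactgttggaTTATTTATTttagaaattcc
ZFP36L2 (3′ UTR, chr2:43223447-43223476, - strand): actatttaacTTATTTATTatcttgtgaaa
ELAVL1 (3′ UTR, chr19:7961827-7961856, - strand): atttatgtatTTATTTATTgaagtgtgaaa
TNFAIP3 (3′ UTR, chr6:137882298-137882327, + strand): gtaattcactTTATTTATTttattacaaac
Counting pentamers instead, ELAVL1 and TIA1 held 13 each, ZFP36L1 held 8, ZFP36 and ZFP36L2 held 5 each, AUH 3, HNRNPD 2 and TIAL1 1. KHSRP and ZC3H12A held none, while 70.7% of the tested genes with a 3′ UTR held at least 1. With the longest annotated coding transcript in place of the principal one, TIAL1 held 7 pentamers and no nonamer. A match is a description of the letters and does not show that a protein binds there.

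None of the 10 AU-rich element binding protein mRNAs changed with VPS72 (edgeR quasi-likelihood test, Benjamini-Hochberg adjusted p under 0.05 over all 14253 genes tested). Adjusted p ranged from 0.553 to 0.955, and 0 of 10 passed an unadjusted p of 0.05. In 4 alternatives 1 of the 10 had an unadjusted p under 0.05, ZFP36 without a filter (0.0154), without FLAG replicate 3 (0.0432) and without VPS72 replicate 1 (0.00806), and ELAVL1 without VPS72 replicate 3 (0.0370). Between 8.68% and 11.1% of all genes had one in those 4 edgeR fits. DESeq2 and limma-voom also called 0 of 10 by adjusted p, although DESeq2 gave no adjusted p for 2 of them. Across all genes tested, 88 changed (0.617%), 60 higher (0.421%) and 28 lower (0.196%), or 32 higher and 54 lower when libraries were scaled by their size alone. A count of 0 in 10 is near that background and does not set these genes apart. Over all genes 11.5% had an unadjusted p under 0.05, 6.03% higher and 5.51% lower, and DESeq2 called 3.88% of the 6538 genes for which it gave an adjusted p. The VPS72 and FLAG libraries overlapped for every one of the 10, whereas 17.2% of all genes tested had no overlap between the groups (8.76% higher, 8.47% lower). The median log2 fold change of the 10 was 0.03, beside -0.00 for all genes tested, and 3 of the 10 were below 0 beside 51.2% of all genes tested. That count depended on single libraries, at 1 of 10 when VPS72 replicate 1 was left out, 2 for FLAG replicate 3, 3 for FLAG replicate 1, 4 for VPS72 replicate 2, and 5 for VPS72 replicate 3 or FLAG replicate 2. It was 4 of 10 with library size scaling or with the abundance trend removed.

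**Figure D1:**
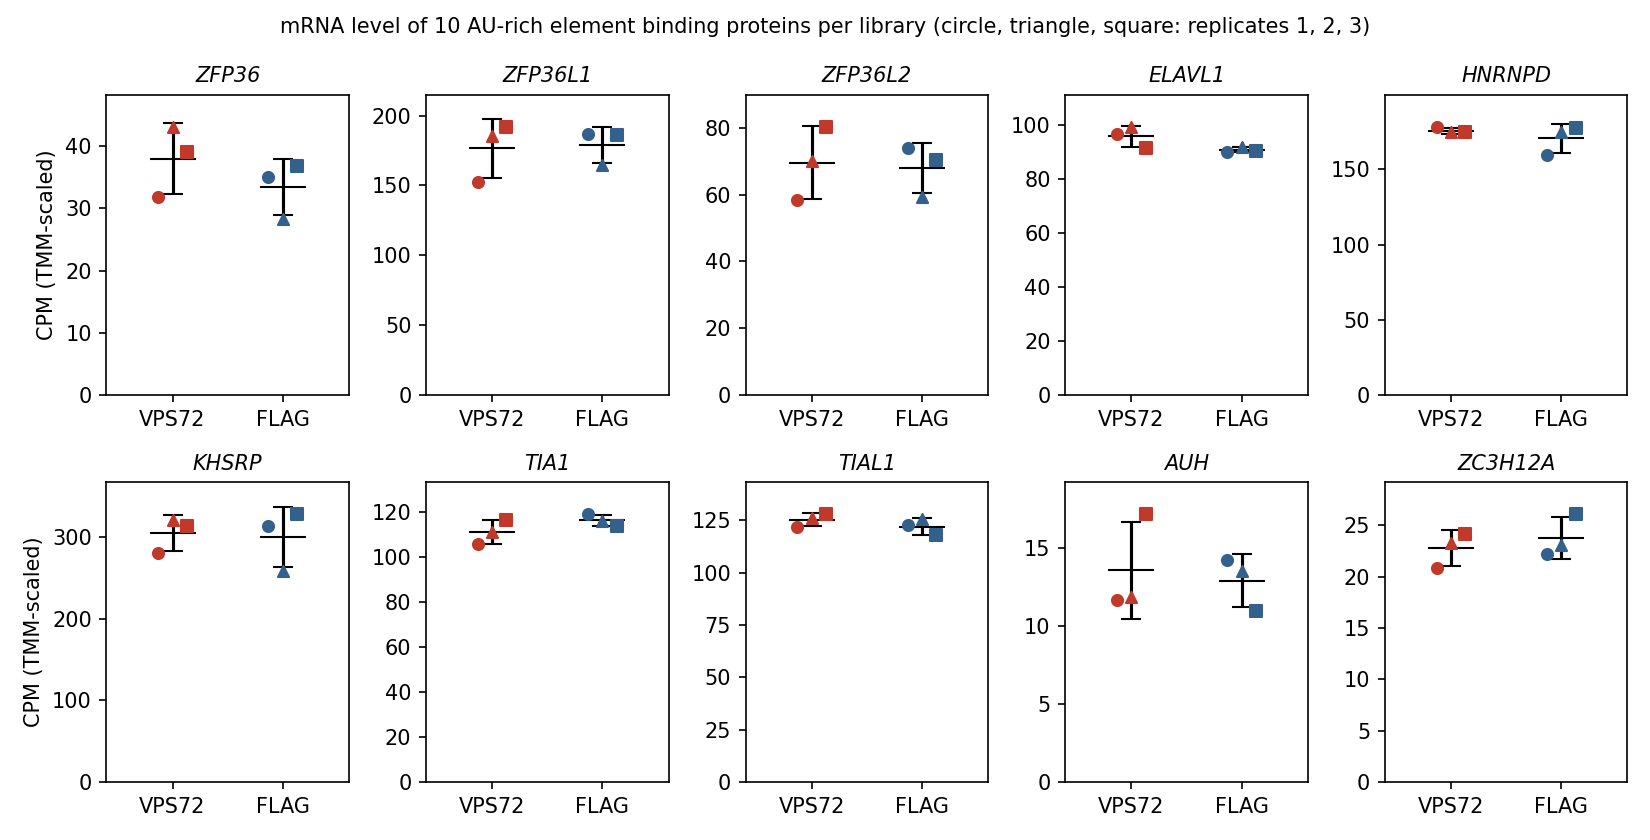
TMM-scaled CPM of each of the 10 genes per library, VPS72 (red) left of FLAG (blue), with the mean and SD of 3 libraries as black bars and each axis starting at 0. The 2 groups overlap in every panel; AUH has the widest relative spread in VPS72 libraries and ZFP36 in FLAG libraries.

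ZFP36, the immediate early member of its family, had 31.8, 43.1 and 39.1 CPM in VPS72 replicates 1 to 3, against 35.1, 28.3 and 36.9 CPM in FLAG replicates 1 to 3. The highest libraries were VPS72 replicates 2 and 3, but VPS72 replicate 1 lay below 2 of the 3 FLAG libraries. Its difference was 13.7% with a 95% interval from -3.17% to 33.5% (log2 fold change 0.19 ± 0.11, SE; edgeR, adjusted p = 0.557). This was the largest fold change of the 10. The estimate ran from 0.08 without FLAG replicate 2 to 0.31 without VPS72 replicate 1, and in none of the alternatives was it past the threshold (adjusted p from 0.265 to 0.873).

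ZFP36L1, a paralog that also limits cell growth and differentiation mRNAs, was the most abundant of the family, with 153, 186 and 192 CPM in VPS72 libraries and 187, 164 and 186 CPM in FLAG libraries. VPS72 replicate 1 was the lowest of the 6 and VPS72 replicate 3 the highest. The difference was -1.42% (95% interval -11.2% to 9.46%; log2 fold change -0.02 ± 0.07; edgeR, adjusted p = 0.955). ZFP36L2, the third paralog, had 58.4, 70.1 and 80.3 CPM in VPS72 libraries and 74.0, 59.4 and 70.4 CPM in FLAG libraries. Its lowest and highest values were both VPS72 libraries, and the difference was 2.27% (95% interval -11.1% to 17.6%; log2 fold change 0.03 ± 0.09; edgeR, adjusted p = 0.945). Summed over the 3 genes, the family stood at 284 ± 36.4 CPM in VPS72 and 281 ± 24.6 CPM in FLAG libraries (SD, n = 3 each).

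KHSRP, which binds AU-rich RNA through KH domains and recruits decay enzymes, had 280.4, 321 and 314 CPM in VPS72 libraries and 313, 258 and 328 CPM in FLAG libraries. It was the most abundant of the 10, and FLAG replicates held both the lowest and the highest value. Its difference was 1.73% (95% interval -8.23% to 12.8%; log2 fold change 0.02 ± 0.07; edgeR, adjusted p = 0.943), with a sign that turned under library size scaling (-0.01). HNRNPD, whose isoforms bind AU-rich mRNAs and mostly speed their decay, had 178, 175 and 175 CPM in VPS72 libraries and 159.8, 175 and 178 CPM in FLAG libraries. FLAG replicate 1 was the lowest and the other 5 libraries lay within a few CPM of each other. The difference was 3.00% (95% interval -3.60% to 10.1%; log2 fold change 0.04 ± 0.04; edgeR, adjusted p = 0.792).

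ZC3H12A had 20.8, 23.3 and 24.2 CPM in VPS72 libraries and 22.2, 23.1 and 26.1 CPM in FLAG libraries, so the lowest value was VPS72 and the highest FLAG. Its difference was -4.18% (95% interval -16.3% to 9.76%; log2 fold change -0.06 ± 0.09; edgeR, adjusted p = 0.867). The stabilizer ELAVL1 had 96.8, 99.4 and 91.7 CPM in VPS72 libraries and 90.2, 92.0 and 90.7 CPM in FLAG libraries. VPS72 replicates 1 and 2 lay above all FLAG libraries, while VPS72 replicate 3 lay below FLAG replicate 2. The difference was 5.52% (95% interval -1.27% to 12.8%; log2 fold change 0.08 ± 0.05; edgeR, adjusted p = 0.553), which was the smallest adjusted p among the 10.

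TIA1 had 106, 111 and 116 CPM in VPS72 libraries and 119, 116 and 114 CPM in FLAG libraries. VPS72 replicates 1 and 2 lay below every FLAG library and VPS72 replicate 3 among them, with a difference of -4.46% (95% interval -10.7% to 2.27%; log2 fold change -0.07 ± 0.05; edgeR, adjusted p = 0.640). Its paralog TIAL1 had 122, 126 and 128 CPM in VPS72 libraries and 123, 126 and 118 CPM in FLAG libraries, with groups that overlapped through most of their range. The difference was 2.63% (95% interval -3.76% to 9.45%; log2 fold change 0.04 ± 0.04; edgeR, adjusted p = 0.815). AUH was the least abundant of the 10, with 11.6, 11.9 and 17.2 CPM in VPS72 libraries and 14.2, 13.5 and 10.97 CPM in FLAG libraries. VPS72 replicate 3 was the highest library and the other 2 VPS72 values lay inside the FLAG range. The AUH difference was 4.53% (95% interval -16.1% to 30.3%; log2 fold change 0.06 ± 0.15; edgeR, adjusted p = 0.927).

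For 6 of the 10 genes, namely ZFP36L1, KHSRP, HNRNPD, ELAVL1, TIA1 and TIAL1, the 95% interval lay within 15% of no change in either direction. For ZFP36, ZFP36L2, ZC3H12A and AUH it reached further, up to 33.5% higher for ZFP36 and 30.3% higher for AUH, so differences of that size remain inside the interval.

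**Figure D2:**
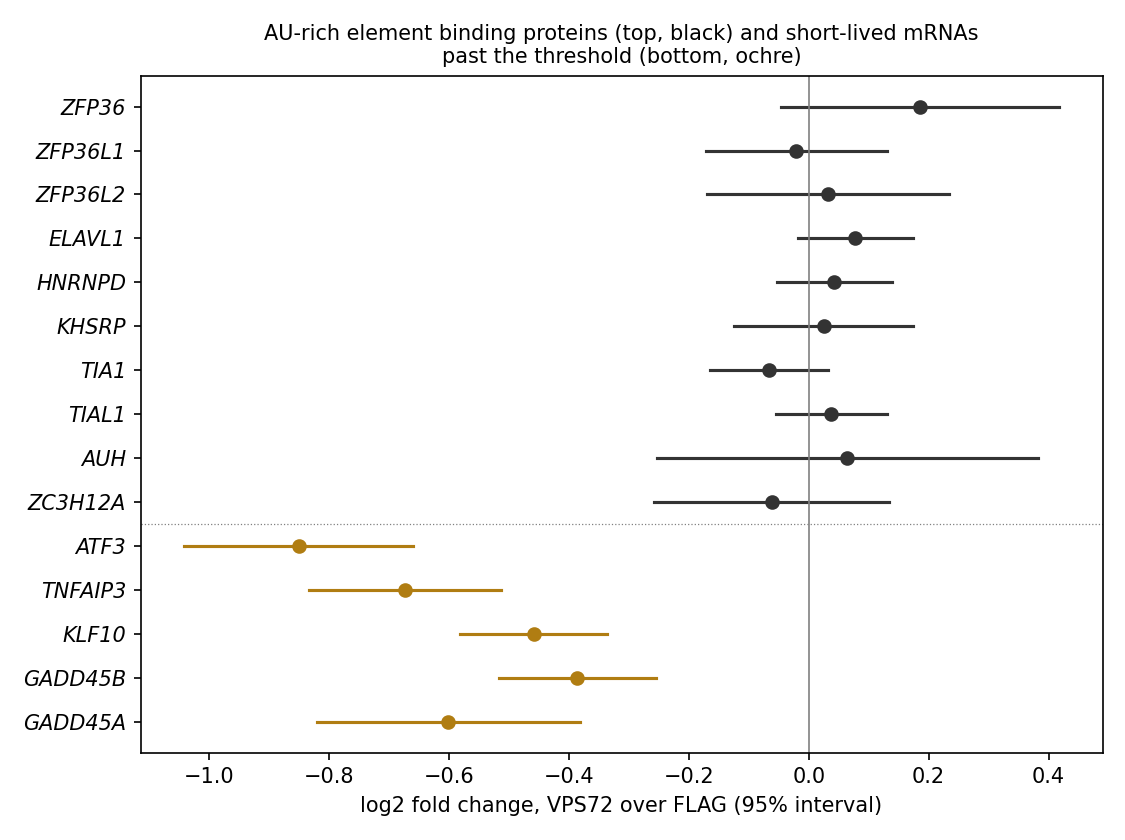
Log2 fold change of VPS72 over FLAG with its 95% interval, for the 10 AU-rich element binding proteins (black) and the 5 listed short-lived mRNAs past the threshold (ochre). All 10 black intervals include 0, and the 5 ochre intervals, from GADD45B at -0.39 to ATF3 at -0.85, lie below 0.

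Expressed per kilobase of the annotated principal transcript, which allows a comparison between genes, KHSRP was highest at 102 ± 7.21 CPM per kilobase in VPS72 and 100.2 ± 12.3 in FLAG libraries (SD, n = 3 each, as for the levels that follow). HNRNPD followed with 58.0 ± 0.657 in VPS72 and 56.3 ± 3.16 in FLAG libraries, close to ZFP36L1 with 55.4 ± 6.61 and 56.2 ± 4.01, and these neighbours did not differ beyond their spread. TIA1 had 23.9 ± 1.14 CPM per kilobase in VPS72 and 24.99 ± 0.551 in FLAG libraries. ZFP36 came next with 21.3 ± 3.21 in VPS72 and 18.7 ± 2.54 in FLAG libraries, and its spread overlapped with TIA1 in VPS72 libraries and with ZFP36L2 (18.8 ± 2.96 and 18.4 ± 2.05) in both groups. ELAVL1 had 15.95 ± 0.649 in VPS72 and 15.1 ± 0.158 in FLAG libraries, and its spread overlapped with ZFP36L2 in VPS72 libraries. AUH at 8.60 ± 1.98 and 8.18 ± 1.08 and ZC3H12A at 8.48 ± 0.643 and 8.86 ± 0.765 were lowest and overlapped. The place of TIAL1 depended on the transcript, at 89.5 CPM per kilobase in VPS72 and 87.2 in FLAG libraries for its short principal transcript, and 24.7 and 24.1 for its longest.

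The spread between libraries of a group differed among the 10 genes, with coefficients of variation from 1.13% (HNRNPD) to 23.1% (AUH) in VPS72 libraries and from 1.04% (ELAVL1) to 13.6% (ZFP36) in FLAG libraries. It was shared by some of them. In VPS72 replicate 1, ZFP36 lay 0.25, ZFP36L1 0.20, ZFP36L2 0.24 and KHSRP 0.12 below their group mean on the log2 scale (deviations of -0.25, -0.20, -0.24 and -0.12). In FLAG replicate 2 the deviations of ZFP36, ZFP36L1, ZFP36L2 and KHSRP were -0.23, -0.12, -0.19 and -0.21. The 4 genes were thus lowest in the same library of each group. ELAVL1 did not share this, with deviations of 0.01 in VPS72 replicate 1 and 0.02 in FLAG replicate 2, nor did HNRNPD (0.02 and 0.04). In these same 2 libraries, the 3093 tested genes with the highest transcript GC content (56.8% to 74.4%) lay low, with median deviations of -0.04 in VPS72 replicate 1 and -0.06 in FLAG replicate 2. ZFP36 (57.3% GC) and KHSRP (59.2%) fall in that range, ZFP36L2 (54.4%) and ZFP36L1 (49.5%) below it, and ZC3H12A (61.1% GC), also within it, deviated by -0.12 and -0.04. The part of GC content in the spread was not tested. With each library's GC trend removed, an alternative chosen after seeing the data, ZFP36 had a log2 fold change of 0.20 and ELAVL1 of 0.10, both with an unadjusted p under 0.05 and an adjusted p of 0.265 and 0.269 in edgeR. Under that same fit 16.8% of all 12372 genes had an unadjusted p under 0.05, so 2 of 10 is near the background.

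**Figure D3:**
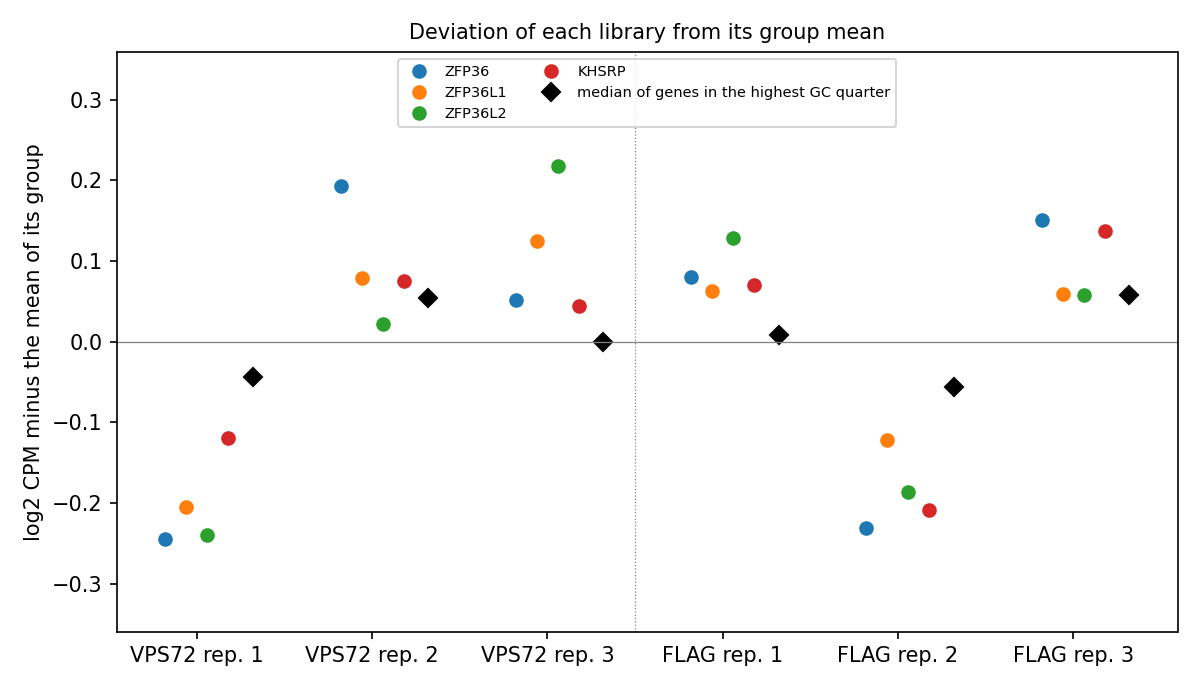
Difference between each library's log2 CPM and the mean of its group, VPS72 libraries left of FLAG libraries, for ZFP36, ZFP36L1, ZFP36L2 and KHSRP (circles) and for the median of the 3093 genes with the highest GC content (diamonds). All 4 genes and the GC median lie below 0 in VPS72 replicate 1 and FLAG replicate 2.

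The 10 genes were chosen with the lower level of some short-lived mRNAs in VPS72 cells already known, and a list of 50 short-lived or AU-rich mRNAs was set beside them. Of its 43 tested members, 5 fell, 0 rose and 38 did not pass, which is 11.6% lower against 0.196% of all genes tested. The count was 3 without FLAG replicate 1 or without VPS72 replicate 1. At an unadjusted p under 0.05 in edgeR, 13 of 43 (30.2%) were lower and 0 higher, beside 5.51% lower of all genes tested. Fold changes below 0 made up 74.4% of the list, beside 51.2% of all genes tested. The list was drawn up with earlier results of these data known, so none of these counts is independent evidence. The median log2 fold change was -0.13, beside 0.03 for the 10 binding protein genes. TNF, IL6, CSF2 and PTGS2, the classic AU-rich cytokine and prostaglandin synthase mRNAs, were among the 7 that did not pass the filter. Other cytokine mRNAs on the list were tested and did not pass the threshold. Their log2 fold changes were -0.03 ± 0.04 for CXCL8, 0.08 ± 0.09 for CXCL1 and 0.16 ± 0.15 for CXCL2. They were -0.49 ± 0.24 for LIF, and -0.64 ± 0.43 for CXCL3 and 0.23 ± 0.67 for IL11, both low at 0.815 and 0.435 CPM.

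The short-lived mRNA with the largest change was ATF3, a stress-induced transcription factor, with 16.9, 18.0 and 19.2 CPM in VPS72 libraries and 31.1, 30.6 and 35.99 CPM in FLAG libraries (log2 fold change -0.85 ± 0.09; edgeR, adjusted p = 0.000362). TNFAIP3, the NF-kB inhibitor A20, had 28.2, 27.9 and 24.4 CPM in VPS72 libraries and 41.1, 43.1 and 44.4 CPM in FLAG libraries (-0.67 ± 0.08; adjusted p = 0.000542 in edgeR). KLF10, a TGF-beta induced transcription factor, had 51.2, 52.3 and 52.6 CPM in VPS72 libraries and 65.9, 75.4 and 73.3 CPM in FLAG libraries (-0.46 ± 0.06; adjusted p = 0.00123 in edgeR). The growth arrest and DNA damage genes GADD45A and GADD45B had log2 fold changes of -0.60 ± 0.10 and -0.39 ± 0.06. Over the whole list, 11 of 43 genes (25.6%) had no overlap between the groups, beside 17.2% of all genes tested. All 11 were lower in VPS72 libraries, beside 8.47% of all genes tested that had no overlap and were lower. The 5 passed the test and were named for that, so their own lack of overlap adds nothing to it. GADD45B was no longer past the threshold without FLAG replicate 1 (edgeR, adjusted p = 0.0773) or VPS72 replicate 1 (0.0590), nor was GADD45A without FLAG replicate 1 (0.115), FLAG replicate 3 (0.0636) or VPS72 replicate 1 (0.0640). The 2 most abundant members, CCND1 (cyclin D1) and CCN1 (a matricellular protein), had log2 fold changes of 0.01 ± 0.04 and -0.05 ± 0.04 and did not pass.

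Of the 5 lower mRNAs only TNFAIP3 holds the nonamer printed above. ATF3 and KLF10 hold 3 pentamers each, GADD45A holds 2 and GADD45B none. Among tested genes with a 3′ UTR the median was 2 pentamers and 42.9% held 3 or more, so these counts are ordinary. Over all tested genes with a 3′ UTR, 7 of the 1051 with the nonamer changed, all 7 lower (0.666%), against 57 higher and 21 lower (0.188% lower) of the 11159 without it. The 7 were TNFAIP3, SLC7A11, TCIM, NUAK2, TIPARP, ZNF507 and NUAK1, named after their values were seen, with log2 fold changes from -0.67 to -0.21. The median log2 fold change was -0.02 with the nonamer and 0.00 without. Genes with the nonamer also had longer 3′ UTRs (median 2942 against 1000 bases) and higher levels (median 37.8 against 27.4 CPM). Among the genes with the longest 3′ UTRs the medians were -0.02 with it (733 genes) and 0.00 without (3335 genes). Lengths still differed there (median 4076 against 3084 bases). Among genes with short 3′ UTRs the medians were -0.02 with it (68 genes) and -0.00 without. For middle lengths they were -0.02 (250 genes) and 0.00. With the nonamer 0.546% (4 genes) of the longest, 1.2% (3 genes) of the middle and 0% of the short group were called lower. Without it the shares were 0.18%, 0.235% and 0.15%. At an unadjusted p under 0.05 in edgeR, 8.28% of genes with the nonamer were lower and 3.9% higher, against 5.53% and 7.03% without it. These are descriptions with no test between groups of genes. The 4 binding protein genes that hold the nonamer, ZFP36, ZFP36L1, ZFP36L2 and ELAVL1, had log2 fold changes of 0.19, -0.02, 0.03 and 0.08.

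Lists of general RNA decay factors, not confined to those that these proteins act through, held no gene past the threshold. For lists of this size that is near the 0.617% of all genes that passed. Of 18 deadenylation genes, 17 of decapping and 5′ decay and 17 of the exosome and 3′ decay, 0 rose and 0 fell in edgeR, with list medians of 0.03, -0.02 and 0.01 and 3, 2 and 3 genes (16.7%, 11.8% and 17.6%) at an unadjusted p under 0.05, beside 11.5% of all genes. CNOT1, the scaffold of the CCR4-NOT complex, had a log2 fold change of 0.04 ± 0.03 and PABPC1, the main cytoplasmic poly(A) binding protein, of 0.02 ± 0.03. The decapping factors PATL1 and DDX6 had -0.09 ± 0.03 and 0.02 ± 0.04. The exosome nuclease EXOSC10 had -0.09 ± 0.04, and its helicase partner MTREX 0.04 ± 0.05. None of these 6 passed.

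Of the kinases, phosphatases and 14-3-3 proteins that switch ZFP36 proteins off and on, 0 of 16 tested passed (median 0.04, 3 or 18.8% at an unadjusted p under 0.05). Of those 3, 2 were higher and 1 lower. The lower was DUSP1, named after its values were seen and also on the short-lived list (-0.14 ± 0.04, edgeR, adjusted p = 0.165). The 2 most abundant, the 14-3-3 proteins YWHAZ and YWHAB, each had a log2 fold change of 0.02 ± 0.03. Of 15 stress granule partners of TIA1, 0 passed (median 0.03, 2 or 13.3% unadjusted), with the scaffold proteins PRRC2C at -0.00 ± 0.03 and UBAP2L at 0.03 ± 0.04. Of 10 leucine breakdown genes, the pathway of AUH, 0 passed and 0 had an unadjusted p under 0.05 (median 0.00). BCAT1, which starts the pathway, had -0.00 ± 0.04 and MCCC2, which acts just before AUH, 0.09 ± 0.05. Of 32 other tested RNA-binding regulators, 0 passed (median -0.01, 7 or 21.9% unadjusted), with IGF2BP1, an mRNA-stabilizing oncofetal protein, at 0.03 ± 0.03 and HNRNPA2B1 at -0.01 ± 0.03. The ELAVL1 paralogs ELAVL2, ELAVL3 and ELAVL4, which are mainly neuronal, did not pass the filter on low counts.

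**Figure D4:**
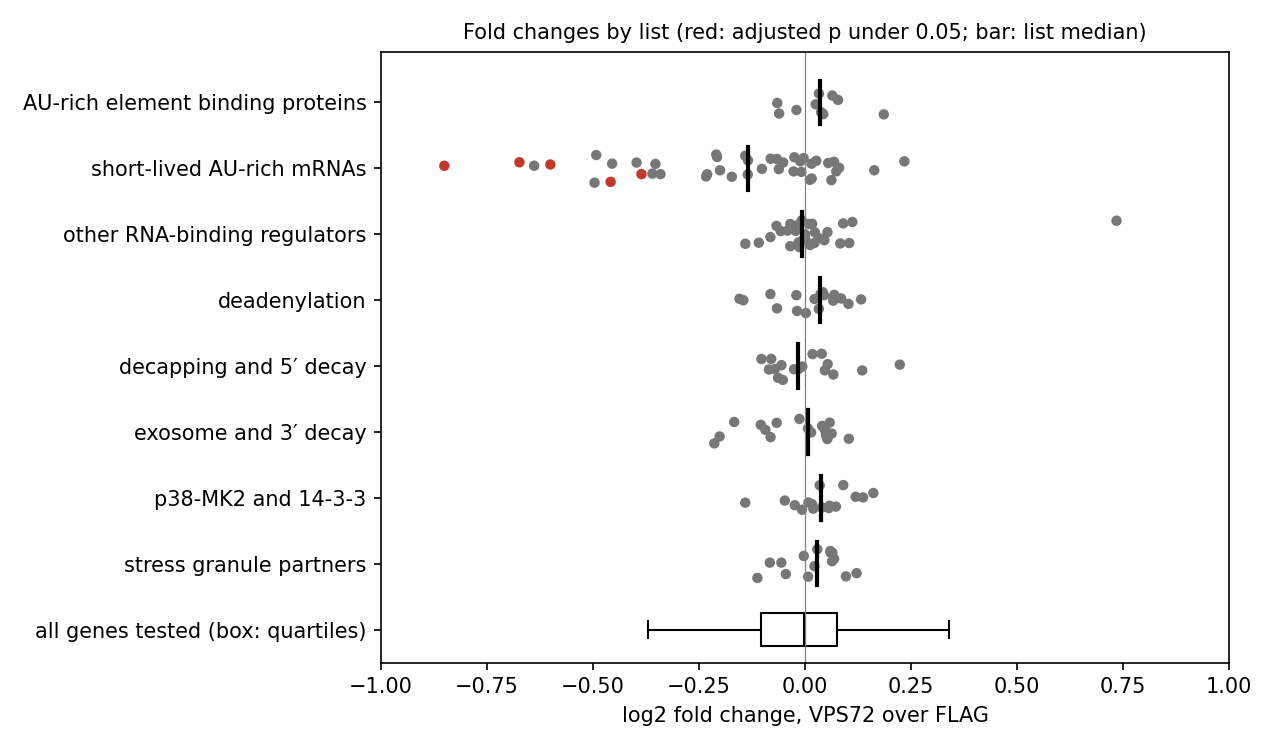
Log2 fold changes of VPS72 over FLAG for the 10 genes, the short-lived mRNAs and 6 lists of related regulators and decay factors (1 dot per tested gene, red where the adjusted p is under 0.05, black bar at the list median), with quartiles of all genes tested at the bottom. The 10 AU-rich element binding proteins lie between -0.07 and 0.19, and the red dots are 5 short-lived mRNAs.

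The question of whether these proteins had a part in the lower short-lived mRNAs was not tested by this design. Only mRNA levels were measured, and the amount, phosphorylation and location of the proteins, which are known to govern ZFP36 and ELAVL1, were not, nor were mRNA half-lives.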

How the data were processed

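Groups and replicate numbers came from the sample titles. The authors deposited estimated counts, unnormalized and in whole numbers, for every gene. STAR, RSEM and limma, and both hg19 and hg38, are listed without versions or roles in the submitters' processing notes. The sources used here give no annotation release or strand setting. Counts from overlapping or similar genes are less certain. By exon, TIA1 overlaps C2orf42 on the same strand (at most 339 counts). ELAVL1 overlaps AC010336.6 and HNRNPD overlaps AC124016.1, both on the opposite strand and without a row in the deposited table. KHSRP and ZC3H12A overlap the microRNA genes MIR3940 and MIR6732, which had 0 counts. Nothing in the labels says that replicates were separate cultures, so p-values measure only how far these samples differ, which may be technical.

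Genes were filtered with filterByExpr (minimum count 10, minimum total 15), which left 14253 genes holding 99.925% of counts. They were tested with edgeR's quasi-likelihood test (edgeR 4.0.16, R 4.3.3) on TMM-scaled libraries, with Benjamini-Hochberg adjustment over all genes and a threshold of 0.05. Standard errors are the fold change divided by the root of F, and 95% intervals use the test's degrees of freedom. The common coefficient of variation was 7.24%. An exact permutation test of 3 against 3 cannot give a p below 0.1. Libraries of a group differed beyond sampling noise (chi-square per degree of freedom 4.70 to 7.69).

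The 10 members and all lists were chosen with earlier results of these data known. The text names the 10 members, VPS72, up to 6 changed genes per list and its 2 most abundant members; any other gene was named after its values were seen. Motifs, transcript lengths and GC content came from 1 GENCODE 29 coding transcript per gene (best APPRIS rank, then longest), matched for 12372 tested genes. The script was tested on simulated data. Alternatives were other scalings, filters and thresholds, DESeq2 1.42.0, limma-voom (limma 3.58.1), the replicate block, VPS72 left out of library sizes, abundance and GC trends removed, and each library left out in turn.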

Additional observations from a re-analysis of the deposited data

How the results depend on the processing

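Under all 18 alternatives 0 of the 10 binding protein genes passed, and their median log2 fold change ran from -0.04 to 0.08 when single libraries were left out. The stricter threshold reused the main fit, so it could add no pass and turn no sign. Leaving VPS72 out of library sizes gave the same smallest p and adjusted p as the main fit. Neither is a separate check. KHSRP turned to -0.0064 with library size alone and -0.0117 with the abundance trend removed, and with single libraries left out the ranges crossed 0 for KHSRP (-0.0712 to 0.0946), ZFP36L1 (-0.0821 to 0.0808), ZFP36L2 (-0.080 to 0.151), HNRNPD (-0.0023 to 0.0722), AUH (-0.14 to 0.17) and ZC3H12A (-0.109 to 0.0091). ZFP36, ELAVL1, TIA1 and TIAL1 kept their sign in all 18. The count of all changed genes, 88, was 264 without a filter, 254 with DESeq2, 57 with the abundance trend removed, 467 with the GC trend removed, 32 at a threshold of 0.01 and 25 to 100 with single libraries left out. The short-lived list had 8 lower genes without a filter and 3 to 6 with single libraries left out, and its median of -0.13 was -0.17 with library size alone, -0.10 with limma-voom and -0.16 to -0.082 with single libraries left out. The cause was not tested.

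With the replicate number as a block, 32 genes changed, 0 of the 10 among them, and the short-lived median was -0.10. Deviations of same-numbered libraries had correlations of -0.04, 0.03 and 0.06 for numbers 1, 2 and 3. Those of libraries with different numbers ran from -0.10 to 0.07. The labels do not say whether same-numbered samples shared a culture or preparation, and these correlations cannot decide it.

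Among other named genes, small fold changes turned sign. With library size alone they were -0.020 for CCND1, -0.0094 for PABPC1, -0.014 for DDX6, -0.012 for YWHAZ, -0.015 for YWHAB and -0.0029 for UBAP2L. With the abundance trend removed they were -0.029 for CCND1, -0.018 for IGF2BP1, -0.036 for PABPC1, -0.0068 for CNOT1, -0.012 for DDX6, -0.033 for YWHAZ, -0.027 for YWHAB and -0.015 for UBAP2L. With the GC trend removed they were 0.011 for HNRNPA2B1, 0.015 for PRRC2C and 0.019 for BCAT1. Without a filter they were 0.00065 for PRRC2C and 0.0012 for BCAT1, and with DESeq2 0.00054 for BCAT1. With single libraries left out the ranges crossed 0 for CCND1 (-0.017 to 0.043), HNRNPA2B1 (-0.019 to 0.0063), MTREX (-0.011 to 0.088), PRRC2C (-0.020 to 0.025) and BCAT1 (-0.031 to 0.027). The 10 binding protein genes held 236 to 8473 counts per library.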
